A study of Mus musculus with 6 samples.

Results

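A set of endoplasmic reticulum (ER) genes was followed in Wehi-231, a line of mouse B lymphoma cells of (BALB/c x NZB)F1 origin. The set holds 42 named genes of ER stress sensing, protein folding, disposal of misfolded proteins, entry into the ER and N-glycosylation, and 32 of the 42 were measurable among 7265 genes tested. A member counted as measurable when a probe named for it lay above an estimated background level, a log2 intensity of 6.61, on at least 3 of 6 arrays. Of the other 10 members, 9 had probes below that limit and Dnajb11 had no probe named for it here. Each Illumina bead array held biotin-labelled cRNA from total RNA. There were 3 arrays of cells with the short hairpin RNA labelled shTFII-I and 3 of cells with the control hairpin labelled shCT, all grown in DMEM with serum. The labels give no hairpin sequence, vector, time or dose, name no agent that causes ER stress, and do not say whether the cells were a pool or a clone, or whether replicates were separate cultures. Every p-value therefore rests on the spread among these 6 samples, and that spread may be technical.

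The ER is where secreted and membrane proteins enter the secretory pathway, fold, receive disulphide bonds and sugar chains, and are sent to the proteasome if they fail to fold. When unfolded proteins accumulate, the sensors IRE1 (Ern1), PERK (Eif2ak3) and ATF6 start the unfolded protein response, in which XBP1 and cleaved ATF6 switch on chaperone and degradation genes. B cells need this machinery for surface immunoglobulin, and plasma cells expand it. TFII-I, the product of Gtf2i, is a transcription factor that has been reported to bind the ER stress response element (ERSE) in the Hspa5 promoter, which is why these genes are of interest in cells with a hairpin named for it.

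The element itself is shown first, because it is the sequence that TFII-I has been reported to bind in the Hspa5 promoter. ERSE was searched as CCAAT, then 9 bases of any kind, then CCACG, on both strands of the 300 bases from 250 before to 50 after each RefSeq start (build GRCm38.p6). A promoter was found for 36 of the 42 members, with 39 promoters in all because 3 genes had more than 1. In 8 of the 36 genes, or 22.2%, a promoter held ERSE, against 0.119% of all 32851 promoters in the table and 0.137% of 27025 genes. The element is known from ER stress genes such as Hspa5, itself a member, so this contrast was in part fixed in advance. Capitals mark CCAAT and CCACG in the following sequences, which are read 5′ to 3′ on the strand that carries CCAAT, with 12 bases on each side.
Hspa5: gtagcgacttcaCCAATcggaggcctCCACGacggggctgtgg
Hsp90b1 far: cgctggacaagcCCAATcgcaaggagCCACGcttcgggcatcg
Hsp90b1 near: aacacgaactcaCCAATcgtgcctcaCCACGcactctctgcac
Calr: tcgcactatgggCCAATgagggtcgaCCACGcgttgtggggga
Canx: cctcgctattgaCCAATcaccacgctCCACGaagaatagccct
Pdia6: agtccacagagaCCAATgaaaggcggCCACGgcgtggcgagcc
Dnajc3: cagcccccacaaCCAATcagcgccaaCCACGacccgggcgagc
Creld2: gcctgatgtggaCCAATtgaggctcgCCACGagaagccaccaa
Syvn1: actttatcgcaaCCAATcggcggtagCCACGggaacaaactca

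The 9 matches lie in Hspa5 at chr2:34772013-34772055 on the plus strand, Hsp90b1 far at chr10:86705626-86705668 on the minus strand, Hsp90b1 near at chr10:86705521-86705563 on the plus strand, Calr at chr8:84847063-84847105 on the plus strand, Canx at chr11:50325788-50325830 on the minus strand, Pdia6 at chr12:17266479-17266521 on the plus strand, Dnajc3 at chr14:118937815-118937857 on the plus strand, Creld2 at chr15:88819508-88819550 on the minus strand, and Syvn1 at chr19:6046520-6046562 on the plus strand. Of the 8 genes, 7 encode chaperones or folding factors and the other, Syvn1, encodes the ubiquitin ligase of ER-associated degradation. TFII-I has been described as binding a GGC in the 9 bases between the ends. GGC stood there in Hspa5, Pdia6, Creld2 and Syvn1, and not in Calr, Canx, Dnajc3 or either match of Hsp90b1, as read on the strand shown. Counted from the transcript start, the match in Syvn1 lay at -44 to -26 and that in Hspa5 at -65 to -47, the nearest of the 9.

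A shorter relative, ERSE-II (ATTGG, 1 base of any kind, then CCACG), is known from Herpud1. It was found in 2 of 36 members, or 5.56%, against 0.0365% of all promoters and 0.0444% of 27025 genes. Herpud1 is itself among the 2, so that share was also in part fixed in advance. Capitals mark ATTGG and CCACG.
Herpud1: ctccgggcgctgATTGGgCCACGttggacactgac
Dnajb11: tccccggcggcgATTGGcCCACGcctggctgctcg
These lie in Herpud1 at chr8:94386365-94386399 on the plus strand and Dnajb11 at chr16:22857840-22857874 on the plus strand. The core ACGTG, part of the XBP1 and ATF6 sites, was in 44.8% of tested members with a promoter, against 31.1% of all genes tested on the arrays that have one. It was in 54.7% of 75 other genes of these pathways with a promoter, here counted whether tested or not. CCACG alone is also the end of ERSE and ERSE-II and can overlap ACGTG. It was in 79.3% of the tested members with a promoter, against 54.2% of all tested genes that have one. Among the same 75 pathway genes its share was 56%. A match is a description of the letters in these windows and no evidence of binding.

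The whole promoters of Hspa5 (chr2:34771840-34772139, plus strand) and Syvn1 (chr19:6046326-6046625, plus strand) show the element in place, Hspa5 because it is the classic ERSE gene and Syvn1 because it is the ERSE gene with the lowest difference on the arrays. Capitals again mark CCAAT and CCACG of an exact ERSE match, and other copies of CCAAT in Hspa5 stay in small letters.
Hspa5: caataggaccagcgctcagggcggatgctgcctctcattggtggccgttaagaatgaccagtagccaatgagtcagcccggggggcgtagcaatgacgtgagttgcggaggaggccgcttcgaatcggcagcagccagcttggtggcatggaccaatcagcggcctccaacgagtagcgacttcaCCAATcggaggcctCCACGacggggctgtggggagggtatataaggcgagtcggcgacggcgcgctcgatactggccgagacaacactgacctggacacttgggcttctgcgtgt
Syvn1: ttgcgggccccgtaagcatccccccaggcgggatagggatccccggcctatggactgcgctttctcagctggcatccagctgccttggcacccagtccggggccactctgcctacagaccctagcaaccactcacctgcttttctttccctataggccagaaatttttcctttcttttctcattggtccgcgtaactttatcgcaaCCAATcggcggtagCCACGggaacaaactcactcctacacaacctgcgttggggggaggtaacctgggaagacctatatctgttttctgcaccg

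**Figure D1:**
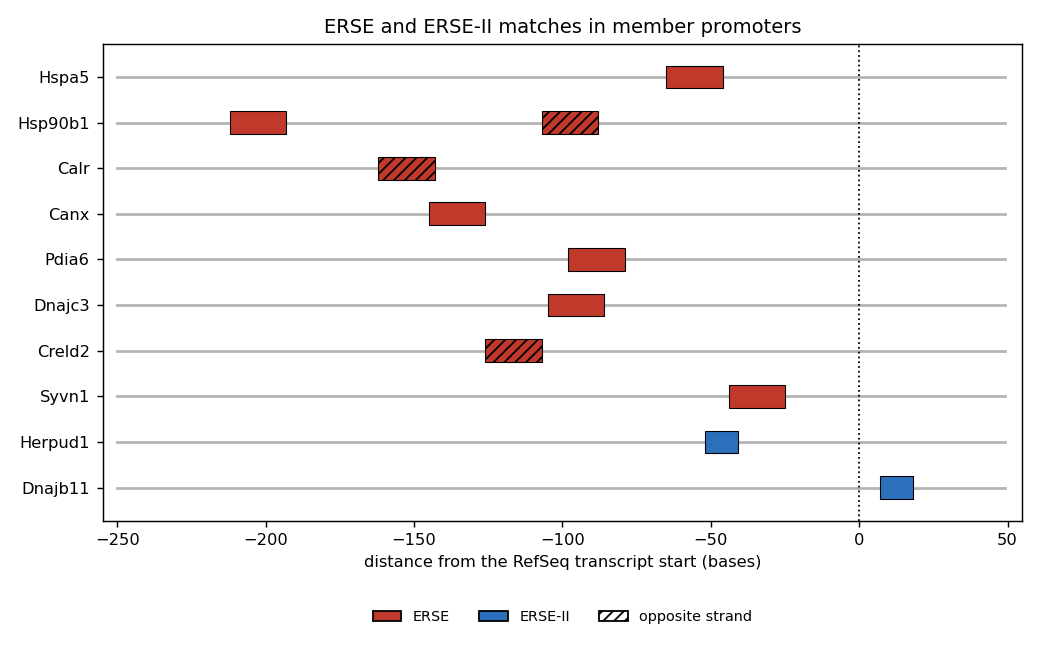
Position of ERSE (red) and ERSE-II (blue) in the promoters of the 10 members that hold one. The x axis is the distance in bases from the RefSeq transcript start, grey lines span the 300 bases searched, and hatching marks a match on the strand opposite to the gene. Hsp90b1 holds 2 ERSE matches, and the Dnajb11 match lies after the start.

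None of the 32 measurable members passed limma's test, and none of the 7265 genes did (0% called, at a threshold of 0.05 for the adjusted p). After a normexp background correction 5 genes passed, and with a robust prior fitted against intensity 6 did, in both cases with 0 members. An unadjusted p under 0.05 was found for 4 members of 32, or 12.5%, against 6.69% of all genes tested. All 4 were lower in shTFII-I cells, where 3.54% of all genes were lower at that p. They were Jagn1, an ER membrane protein of the secretory pathway that neutrophils need in mouse and human, Rpn2, a subunit of the oligosaccharyltransferase that attaches N-glycans, Syvn1, and Edem2, which trims mannose from misfolded glycoproteins for disposal. Those 4 were also the members whose groups did not overlap, again 12.5% of the 32, against 11.9% of all genes in either direction and 6.35% in the lower one. The members were chosen with earlier results of these data known, so these shares are a description and no test of the set. Because whole cultures were measured, a lower level in every cell and a loss in some of the cells cannot be told apart.

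Over all members the groups were close, with 18 lower and 14 higher in the mean in shTFII-I cells. The share lower was 56.2%, against 49.9% of all genes tested. The median log2 difference, shTFII-I minus shCT, was -0.06 for the 32 members tested and 0.000367 for all genes. Without the first shTFII-I array the members' median was -0.15, and without the filter, over 41 members, it was 0.00766. The 95% interval of a member's difference had a median half-width of 0.54 on the log2 scale, from 0.32 to 1.22. The intervals of Jagn1, Rpn2, Syvn1 and Edem2 did not include 0, yet none of the 4 passed after adjustment. The median SD within groups was 0.33 for the members and 0.22 for all genes tested. These sets were not matched for intensity, on which the spread can depend in values without background subtraction. Above background on all 6 arrays were 31 of the 32 members and 5734 of the 7265 genes. Whether the members' spread differs from that of genes of like intensity was not tested.

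**Figure D2:**
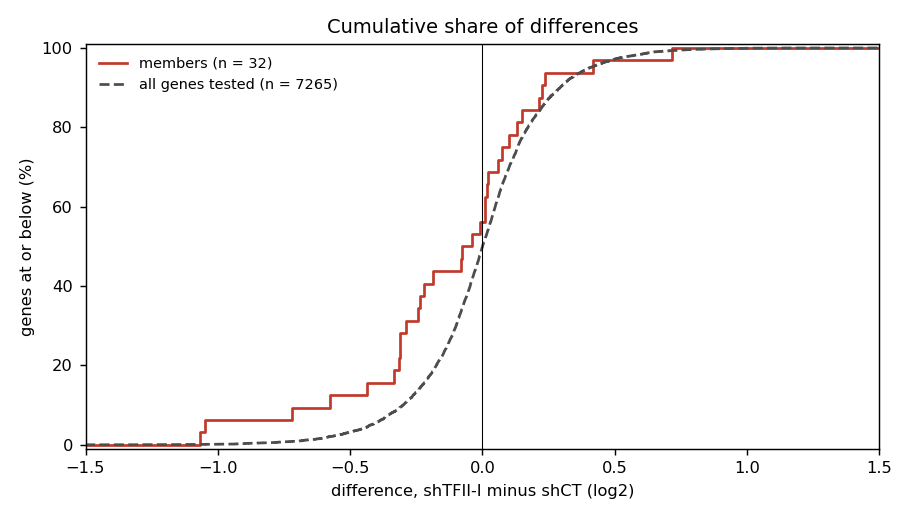
Cumulative share (y axis, %) of log2 differences, shTFII-I minus shCT (x axis), for the 32 tested members (solid red) and all 7265 genes tested (dashed grey). The members reach from -1.07 to 0.72, and their curve lies above that of all genes at the low end, where Jagn1, Rpn2, Syvn1 and Edem2 are the lowest 4.

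Gtf2i, the target of the hairpin, could not be read, since its only named probe was not above background on any array. Its log2 intensities were 6.40, 6.53 and 6.44 on the shTFII-I arrays and 6.47, 6.56 and 6.41 on the shCT arrays, so the knockdown was not checked by these values. Of the B cell markers, 7 were tested, Ms4a1 was below the limit, and Cd79a and Ighm had no named probe. Cd79b, part of the B cell receptor, averaged 11.42 ± 0.18 in shTFII-I cells and 10.68 ± 1.01 in shCT cells (SD, n = 3 each), and Pax5 was close to background. Cd74, the invariant chain of antigen presentation, read 10.56, 10.05 and 10.59 on shTFII-I arrays and 9.18, 9.94 and 9.91 on shCT arrays. Its groups were apart, with a difference of 0.72 ± 0.25 (log2, SE; limma adjusted p = 0.693). Cd74 was the 1 of 7 tested B cell markers with groups apart, where 11.9% of all genes tested were. Cd37, Blnk, Pax5, Cd22 and Ebf1 differed by 0.32, 0.08, 0.06, -0.00676 and -0.06 (log2), all with overlapping groups. Of the plasma cell markers Prdm1, Sdc1, Jchain and Tnfrsf17 were below the limit, while Irf4, Slamf7 and Mzb1, an ER folding factor of B cells, were tested. They differed by -0.06 ± 0.31, -0.33 ± 0.18 and -0.41 ± 0.34 in that order (log2, SE), all with overlapping groups. The T cell markers Cd3d, Cd3e, Cd3g, Cd4 and Cd8a were below the limit while Cd8b1 and Zap70 were above it, and 2 genes each passed from the myeloid, fibroblast and erythroid lists. Their part in the results was not tested.

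The stress sensors were for the most part not measurable. All 3 probes of Ern1, both of Eif2ak3 and both of Atf6 lay below the limit. The brightest Ern1 probe read 6.42, 6.39 and 6.60 on shTFII-I arrays and 6.61, 6.56 and 6.58 on shCT arrays. For Eif2ak3 the brightest probe read 6.51, 6.60 and 6.44 on shTFII-I arrays and 6.50, 6.62 and 6.57 on shCT arrays. Each of these probes exceeded the background level on 1 array. The brighter Atf6 probe read 6.46, 6.47 and 6.56 on shTFII-I arrays and 6.42, 6.49 and 6.52 on shCT arrays, and neither exceeded the level on any array. Xbp1, the transcription factor whose mRNA IRE1 splices, was well measured at 8.96, 8.96 and 9.20 on shTFII-I arrays and 9.81, 9.28 and 8.76 on shCT arrays. The shTFII-I arrays lay within the range of the shCT arrays, and the difference was -0.24 ± 0.26 (log2, SE; limma adjusted p = 0.943). What the probe says of spliced against unspliced Xbp1 is not known here.

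Hspa5 (BiP), the main chaperone of the ER lumen and the best known ERSE gene, could not be measured either. Its only probe read 6.60, 6.47 and 6.55 on shTFII-I arrays and 6.47, 6.64 and 6.42 on shCT arrays, above background on 1 array. Manf, a secreted stress protein, and Canx, the membrane-bound lectin chaperone calnexin, each had 1 probe that was not above background on any array. Canx read 6.31, 6.47 and 6.43 on shTFII-I arrays and 6.42, 6.36 and 6.33 on shCT arrays. So 2 of the 8 ERSE genes, Hspa5 and Canx, gave no usable level. At the limit itself, Hyou1, an HSP70-like ER chaperone, was kept with 3 arrays above background, and Rpn1, Rpn2's partner in the oligosaccharyltransferase, was left out with 2.

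Among the 12 chaperones and folding enzymes tested, 9 were lower and 3 higher in the mean in shTFII-I cells, 0 passed the test, and every one had overlapping groups. Hsp90b1 (GRP94), the ER form of HSP90 and a client-selective chaperone, stood highest of all members in its difference. It read 11.25, 11.52 and 9.94 on shTFII-I arrays and 9.83, 10.57 and 10.17 on shCT arrays. Replicates 1 and 2 of shTFII-I lay above all shCT arrays and replicate 3 below 2 of them, and the difference was 0.72 ± 0.41 (log2, SE; limma adjusted p = 0.804). It was 1.20 when the array of shTFII-I replicate 3 was left out, and 0.41 when that of replicate 2 was.

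Calr (calreticulin), the soluble lectin chaperone, rested on 1 array. It read 10.19, 8.22 and 8.33 on shTFII-I arrays and 8.75, 8.79 and 8.90 on shCT arrays. The first shTFII-I array was the highest of the 6 and the other two the lowest, and the difference of 0.10 ± 0.49 (log2, SE) became -0.54 without that array. Pdia3 (ERp57), the disulphide isomerase that works with calreticulin and calnexin, had the same order of arrays in the shTFII-I group. Its levels were 11.28, 10.27 and 10.36 on shTFII-I arrays and 11.15, 10.99 and 11.08 on shCT arrays, with a difference of -0.44 ± 0.27 (log2, SE; limma adjusted p = 0.813). Without the first shTFII-I array the Pdia3 difference was -0.76.

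The other folding genes with ERSE lay close together. Creld2, a stress-induced isomerase of the ER, read 9.43, 8.87 and 9.38 on shTFII-I arrays and 9.04, 9.39 and 9.48 on shCT arrays, and its second probe differed by 0.26 where the first differed by -0.08. Dnajc3 (p58IPK), a co-chaperone of BiP, read 7.86, 7.78 and 8.08 on shTFII-I arrays and 7.97, 8.01 and 8.40 on shCT arrays, a difference of -0.22 ± 0.16 (log2, SE). Pdia6, a disulphide isomerase that binds BiP, read 7.06, 6.87 and 6.69 on shTFII-I arrays and 6.95, 7.08 and 6.83 on shCT arrays. In all of these the groups overlapped, and the limma adjusted p ran from 0.88 to 0.983.

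P4hb (PDI), the general disulphide isomerase, varied as much within as between groups. It read 10.59, 10.73 and 11.83 on shTFII-I arrays and 11.39, 11.43 and 10.45 on shCT arrays, a difference of -0.04 ± 0.40 (log2, SE). The remaining folding genes differed by -0.34 (Pdia4), -0.31 (Dnajc10, the disulphide reductase ERdj5), -0.29 (Sdf2l1, a partner of the BiP cycle), -0.01 (Hyou1) and 0.06 (Dnajb9, the co-chaperone ERdj4). Their limma adjusted p lay between 0.897 and 0.996.

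**Figure D3:**
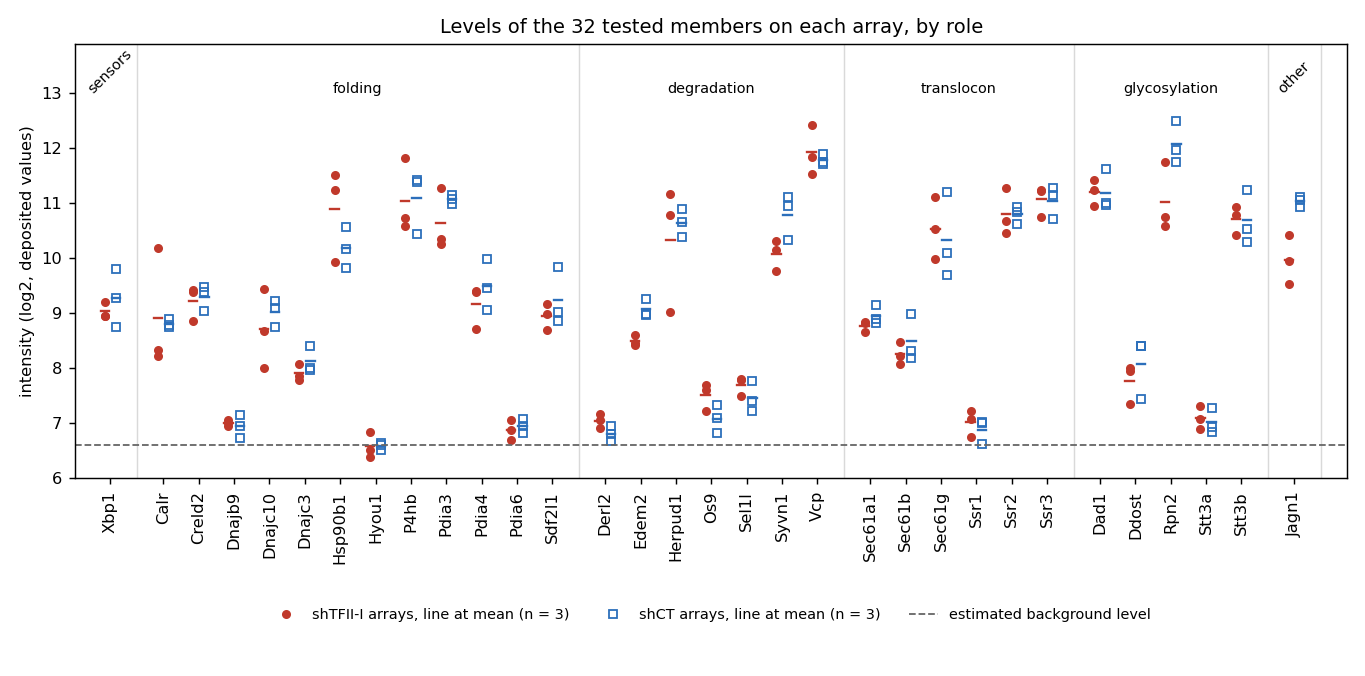
Log2 intensity (y axis) of each of the 32 tested members on the 3 shTFII-I arrays (filled red circles) and the 3 shCT arrays (open blue squares), with a line at each group's mean and members grouped by role along the x axis. The dashed line is the background level of 6.61; Jagn1, Rpn2, Syvn1 and Edem2 have all shTFII-I arrays below all shCT arrays, by 0.01 in Rpn2.

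In the degradation group, 3 members were lower and 4 higher in the mean. Syvn1 (HRD1), the ubiquitin ligase at the centre of the pathway, read 10.31, 10.16 and 9.77 on shTFII-I arrays and 10.33, 10.95 and 11.11 on shCT arrays. The groups were apart by a narrow gap, 10.31 against 10.33, and the difference was -0.72 ± 0.24 (log2, SE; limma adjusted p = 0.664), or 1.65-fold. Of the members with ERSE, its match lies nearest to the start, and a link between position and difference was not tested. Sel1l, the adaptor that holds Syvn1 in its complex, went the other way in the mean, at 7.50, 7.81 and 7.78 on shTFII-I arrays and 7.22, 7.77 and 7.41 on shCT arrays, with a difference of 0.23 ± 0.18 (log2, SE).

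Edem2 had the smallest SE of the 4 separated genes. It read 8.46, 8.60 and 8.43 on shTFII-I arrays and 8.97, 8.99 and 9.26 on shCT arrays, a difference of -0.58 ± 0.14 (log2, SE; limma adjusted p = 0.474), or 1.49-fold. A second and dimmer Edem2 probe differed by -0.15 ± 0.18 with overlapping groups, and with the mean of both probes the difference was -0.36. Edem3, its relative, was not above background on any array.

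Os9, the lectin that hands glycoproteins to Syvn1, was higher in the mean, at 7.61, 7.23 and 7.69 on shTFII-I arrays and 7.09, 7.34 and 6.83 on shCT arrays. The groups overlapped, since the second shTFII-I array lay below the second shCT array, and the difference was 0.42 ± 0.19 (log2, SE; limma adjusted p = 0.749). Derl2, a derlin of the retrotranslocation channel, read 6.92, 7.17 and 7.06 on shTFII-I arrays and 6.80, 6.95 and 6.68 on shCT arrays, a difference of 0.24 ± 0.14 (log2, SE). Its second probe differed by -0.00724, and neither of 2 Derl1 probes passed the limit.

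Herpud1, the stress-induced scaffold of the Syvn1 complex and the tested member with an ERSE-II, had the widest range within a group of all tested members. It read 10.79, 9.03 and 11.17 on shTFII-I arrays and 10.39, 10.66 and 10.89 on shCT arrays. The second shTFII-I array was the lowest of the 6, also on the second Herpud1 probe, where it read 9.02 against 9.75 and 10.04 on the other shTFII-I arrays. The difference of -0.32 ± 0.52 (log2, SE) was 0.33 without that array. Vcp, the ATPase that pulls proteins out of the membrane, read 11.53, 12.43 and 11.85 on shTFII-I arrays and 11.71, 11.90 and 11.76 on shCT arrays, a difference of 0.15 ± 0.23 (log2, SE).

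The translocon, through which new chains enter the ER, had the narrowest range of differences of any role with more than 1 tested member. Of its 6 members, all of them tested, 4 were higher and 2 lower in the mean, with differences from -0.24 for Sec61b to 0.21 for Sec61g and 0 past the test. Ssr3, a subunit of the translocon-associated TRAP complex, read 11.25, 10.75 and 11.22 on shTFII-I arrays and 11.16, 10.71 and 11.28 on shCT arrays, a difference of 0.02 ± 0.21 (log2, SE). Its 95% interval, -0.47 to 0.51, leaves room for changes of that size in either direction. Sec61a1, which forms the pore, read 8.66, 8.82 and 8.85 on shTFII-I arrays and 8.83, 9.15 and 8.90 on shCT arrays, a difference of -0.19 ± 0.14 (log2, SE). Sec61b, a small subunit beside the pore, had a second probe at 0.06, against -0.24 on the first. Ssr2 differed by 0.00766 and Ssr1 by 0.13, both TRAP subunits.

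In the oligosaccharyltransferase, Rpn2 had the largest difference of the 5 members tested. It read 11.75, 10.58 and 10.76 on shTFII-I arrays and 11.76, 11.98 and 12.49 on shCT arrays. Replicates 2 and 3 of shTFII-I were at least 1 log2 unit below the lowest shCT array while replicate 1 all but met it, and the difference was -1.05 ± 0.33 (log2, SE; limma adjusted p = 0.636), or 2.07-fold. Without the first shTFII-I array it was -1.41. Ddost, another subunit of the complex, read 8.01, 7.95 and 7.36 on shTFII-I arrays and 8.41, 8.40 and 7.44 on shCT arrays, a difference of -0.31 ± 0.31 (log2, SE), which ran from -0.63 to -0.10 with 1 array left out.

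For the catalytic subunits the differences were smaller than their SE. Stt3a differed by 0.07 ± 0.17 and Stt3b by 0.02 ± 0.27 (log2, SE), with 95% intervals of -0.33 to 0.48 and -0.61 to 0.65. A dimmer Stt3b probe differed by -0.24 ± 0.12, with all shTFII-I arrays (7.65, 7.53 and 7.40) below all shCT arrays (7.76, 7.85 and 7.69). Dad1, a small subunit named for its protection from cell death, read 10.96, 11.42 and 11.24 on shTFII-I arrays and 11.62, 11.00 and 10.97 on shCT arrays, a difference of 0.01 ± 0.22. Whether Rpn2 differed from the other subunits was not tested.

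Jagn1 had the largest difference of the members. It read 9.54, 9.96 and 10.42 on shTFII-I arrays and 11.12, 10.93 and 11.07 on shCT arrays. All shTFII-I arrays were at least 0.5 below all shCT arrays, and the shCT arrays lay within 0.19 of each other. The means were 9.97 ± 0.44 in shTFII-I cells and 11.04 ± 0.10 in shCT cells (SD, n = 3 each), a difference of -1.07 ± 0.22 (log2, SE; limma adjusted p = 0.442), or 2.09-fold. Among all 7265 genes, 17 differed by at least 1 on the log2 scale, of which Jagn1 and Rpn2 are 2. Dim genes show too small a difference in these values, while the tested probes of Jagn1 and Rpn2 lay well above background. The other named Jagn1 probe did not pass the limit. Neither Jagn1 promoter held ERSE, while one held the core ACGTG.

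**Figure D4:**
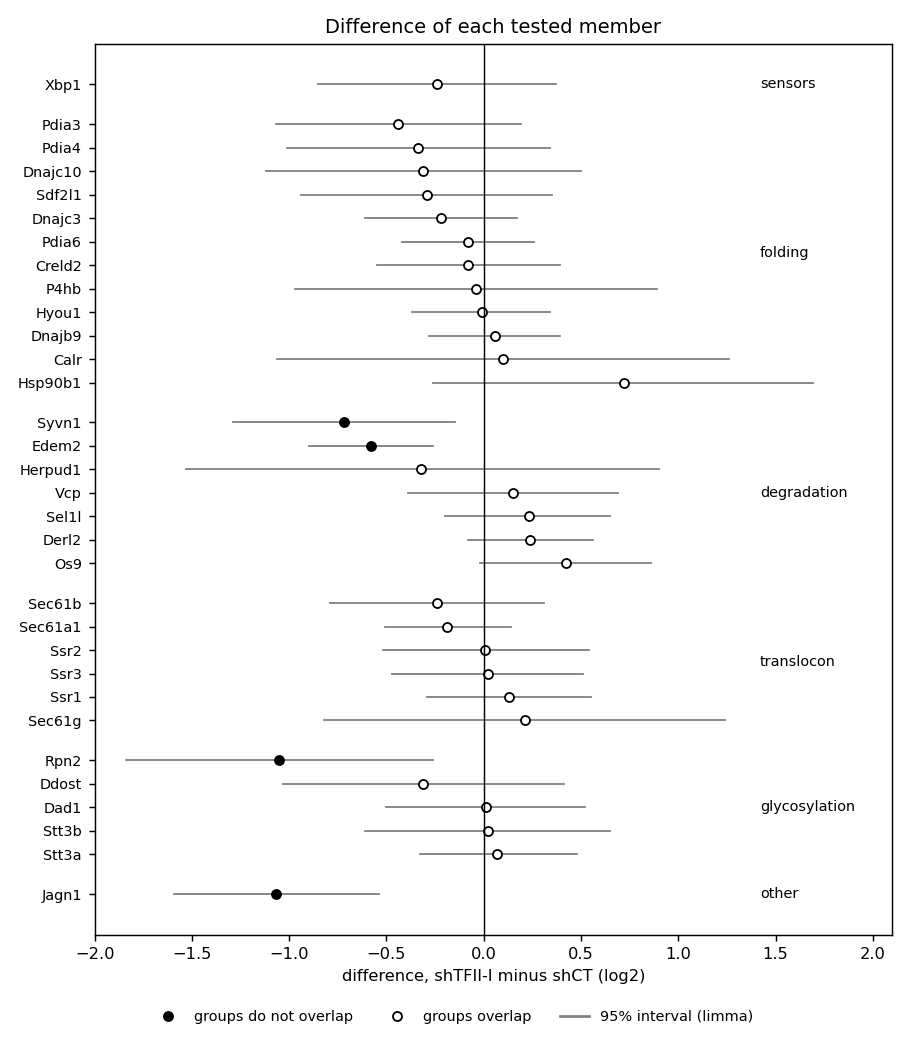
Log2 difference, shTFII-I minus shCT (x axis), of each of the 32 tested members with its 95% interval from limma, ordered within roles. Filled points mark the 4 members whose groups do not overlap, all of them below 0; the widest intervals belong to Herpud1 and Calr.

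Set beside the motifs, the 6 measurable members with ERSE differed by -0.72 (Syvn1), -0.22 (Dnajc3), -0.08 (Creld2), -0.08 (Pdia6), 0.10 (Calr) and 0.72 (Hsp90b1), a median of -0.0793. The 23 measurable members with a promoter and no exact match to ERSE had a median of -0.0398. Of the 5999 tested genes with a promoter, 10 held ERSE, the 6 members above among them, with a median of -0.0725. The other 5989 had a median of 0.00049. With 6 genes, no difference between those with and without ERSE was tested.

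Each array's values were also set against the members' own means. The median deviation of a member from its own mean over the 6 arrays ran from -0.06 to 0.03 among the shTFII-I arrays and from -0.11 to 0.11 among the shCT arrays. The array of shCT replicate 3 held the highest value of 10 members, against 3 to 6 on the other arrays. The array of shCT replicate 2 held the lowest value of 1, against 5 to 7 on the others. In single genes the widest ranges came from the shTFII-I group, 2.14 in Herpud1 and 1.98 in Calr.

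Of 98 further genes of these pathways, 77 were tested, 37 higher and 40 lower in the mean in shTFII-I cells, and 0 passed limma's test. Their median difference was -0.00283. At an unadjusted p under 0.05 there were 7, or 9.09%, against 6.69% of all genes tested. Of these 4 were higher, or 5.19%, against 3.15% of all genes, and 3 were lower, or 3.9%, against 3.54%. This list was also chosen with earlier results of these data known, so the shares are a description. The higher ones were Ero1b, the oxidase that recharges disulphide isomerases, Erp29, a folding factor, Tmbim6, an ER membrane protein that protects from cell death, and Krtcap2, a subunit of the oligosaccharyltransferase. Ero1b, whose promoter also holds ERSE, read 8.14, 8.08 and 8.77 on shTFII-I arrays and 7.55, 7.63 and 7.80 on shCT arrays, a difference of 0.67 ± 0.20 (log2, SE; limma adjusted p = 0.636). Krtcap2, in the same complex as Rpn2, read 10.93, 11.56 and 11.67 on shTFII-I arrays and 10.82, 10.87 and 10.72 on shCT arrays. Its difference was 0.58 ± 0.21 (log2, SE; limma adjusted p = 0.693). All shTFII-I arrays were above all shCT arrays in both Ero1b and Krtcap2. Among the 77 genes the groups were apart in 7 higher and 7 lower ones, against 401 and 461 of all 7265 genes.

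Tmbim6 read 10.36, 10.58 and 10.40 on shTFII-I arrays and 10.14, 10.09 and 10.07 on shCT arrays, a difference of 0.34 ± 0.12 (log2, SE; limma adjusted p = 0.693). Erp29 differed by 0.52 ± 0.22. The lower ones were Fam8a1 (-0.52 ± 0.18) and Aup1 (-0.32 ± 0.13), both parts of the Syvn1 system, and Alg2 (-0.37 ± 0.15), a mannosyltransferase that builds the glycan precursor. Second probes went the other way for Aup1, at 0.42 ± 0.17, and for Fam8a1, at 0.12 ± 0.20. Txndc12, a small thioredoxin of the ER, came next at 0.42 ± 0.18 with overlapping groups. The PERK branch factors Atf4 and Ddit3 (CHOP), markers of a running stress response, differed by -0.18 ± 0.16 and 0.28 ± 0.32 (log2, SE), with 95% intervals that include 0.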

How the data were processed

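The members and gene lists were chosen with earlier results of these data known. The authors deposited log2 intensities for 45281 probes. From the values, columns had been quantile normalized, since sorted columns differ by at most 0.00118, with no sign of background subtraction, and without it dim genes show too small a difference. The submitters' processing notes name limma, with version and role not given in the sources used here. Another table of bead signals was left unused, as its 12 columns match no sample label. The background level was the mode of all values, 6.45, plus the mirrored distance below it that 1% of background exceeds, which gave 6.61 (bins of 0.02). A probe was kept where at least 3 arrays exceeded it, and 12228 were. Names came from the array platform's annotation (34885 with 1 symbol, 18 with several, 10378 with none), with 34807 updated by Entrez ID to RefSeq symbols (GRCm38.p6). The probe with the highest mean stood for each of 7265 genes, and 7 members had more than 1 probe kept.

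shTFII-I was compared with shCT in R 4.3.3 with limma 3.58.1, using lmFit and eBayes with a constant prior variance. P-values were adjusted by Benjamini-Hochberg over the 7265 genes, with 0.05 as threshold. Fold sizes are of the deposited values. Precision is limited by there being 3 arrays a group. Levels of different probes depend on the probe and were not ranked between genes. Values on every array are given for the sensors, Hspa5, members with ERSE, the 10 members of smallest p and the brightest probe of each role, with values of other members where a comparison needs them, and the other pathway genes named are the 8 of smallest p, with Atf4 and Ddit3 named after their values were seen. Same-numbered arrays deviated from their group means with correlations of -0.0139, 0.00328 and 0.1, so the numbers were not taken as pairs. Alternatives covered the filter, normexp with an offset of 16, the prior, array weights, the choice of probe, the replicate block and each array left out.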

Additional observations from a re-analysis of the deposited data

How the results depend on the processing

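Across 13 alternatives 0 members passed the limma threshold, and the smallest adjusted p of a member in limma was 0.277 (Jagn1 with array weights, in a range up to 0.92 over its alternatives). Of the 32 members, 13 kept the sign of their difference in every alternative run, Jagn1, Rpn2, Syvn1 and Edem2 among them, and 19 changed it at least once. The count of all genes past the threshold, 0 with the constant prior, was 5 with normexp and 6 with a robust prior fitted against intensity. The count at an unadjusted p under 0.05 was 486, and 1011 without a filter, where 19057 genes were tested. With 1 array left out that count ran from 356 to 547, members at that p from 4 to 6, genes past the threshold stayed at 0, and the members' median difference ran from -0.15 to -0.06. The -0.15 came without the first shTFII-I array. In the fit blocked on replicate number, 0 genes passed, and 4 members and 516 genes lay at an unadjusted p under 0.05, so the block changed no call. Small differences changed sign: with array weights Hyou1 was 0.03, Ssr2 -0.09 and Stt3b -0.17, and with the mean of the probes Creld2 was 0.09 and Stt3b -0.11. With 1 array left out, log2 differences that changed sign ran as follows: Xbp1 from -0.50 to 0.03, Hyou1 from -0.14 to 0.08, Dnajb9 from -0.05 to 0.16, Dnajc10 from -0.68 to 0.04, Sdf2l1 from -0.48 to 0.01, Creld2 from -0.21 to 0.10, Calr from -0.54 to 0.45, Pdia6 from -0.18 to 0.01, P4hb from -0.43 to 0.19, Herpud1 from -0.74 to 0.33, Vcp from -0.10 to 0.35, Sec61b from -0.40 to 0.00508, Sec61g from -0.11 to 0.65, Ssr1 from -0.00169 to 0.26, Ssr2 from -0.23 to 0.18, Ssr3 from -0.15 to 0.18, Dad1 from -0.10 to 0.22, Stt3a from -0.04 to 0.20, Stt3b from -0.18 to 0.30. Another 7 kept their sign but moved by over 1.5 times: Hsp90b1 ran from 0.41 to 1.20, Dnajc3 ran from -0.31 to -0.09, Pdia3 ran from -0.76 to -0.25, Pdia4 ran from -0.56 to -0.09, Sel1l ran from 0.10 to 0.38, Sec61a1 ran from -0.25 to -0.09, Ddost ran from -0.63 to -0.10. Signal over background limits Hspa5, Canx, Rpn1 and the sensors Ern1, Eif2ak3 and Atf6, whose change or lack of it these arrays cannot show.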
